A study of Homo sapiens with 6 samples.

Results

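The heat shock proteins, J-proteins and ER (endoplasmic reticulum) chaperones of BT-549 breast cancer cells were described in 3 control and 3 IRF1shRNA samples. Members were all listed symbols of the families HSPA, HSPB, HSPH, HSPD, HSPE, HSP90, DNAJA, DNAJB, DNAJC and PDIA, together with the ER lectins CALR and CANX. That gave 78 of the 37887 listed symbols. By the place where the encoded protein is known to work, 43 were taken as cytosolic, 9 as mitochondrial and 20 as ER chaperones, and 6 were left unassigned. J-proteins that sit on a vesicle or endosome and face the cytosol, such as DNAJC5 and DNAJC13, were counted as cytosolic. No separate nuclear set was made, so the cytosolic set also holds members such as the histone chaperone DNAJC9. A total of 71 members passed the filter on low counts and were tested, and DNAJB3, DNAJB8, DNAJC12, HSPA7, HSPB2, HSPB3 and HSPB7 did not pass it, with no sample above 0.128 CPM (the count per 1e6 counts of the TMM-scaled library total).

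Molecular chaperones bind proteins that are not yet folded and let go of them in cycles that most of them drive with ATP. HSP70 proteins are set to work by J-proteins, which bring them clients and speed up ATP hydrolysis, and are reset by exchange factors of the HSP110 family, while HSP90 proteins, small heat shock proteins, chaperonins, lectins and protein disulfide isomerases handle other steps. Cells keep separate sets in the cytosol, the mitochondria and the ER: the cytosolic set is induced through heat shock factor 1 (HSF1) and the ER set through the unfolded protein response.

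RNA-seq had been performed on BT-549 cells, an established mesenchymal-like triple-negative breast cancer cell line, to ask how loss of IRF1, a transcription factor of the interferon response, alters gene expression. There were 3 control samples, given 0.1% DMSO, and 3 IRF1shRNA samples, given 500 ng/ml doxycycline to induce a short hairpin RNA against IRF1. Titles of the DMSO samples mention a control shRNA, whereas by the design text both groups were the same line, with a tet-inducible IRF1 shRNA. Only the IRF1shRNA samples received doxycycline and a single hairpin was used, so the effects of the drug, of the hairpin and of lower IRF1 cannot be told apart. The labels call the samples triplicate cultures and give no more, so p-values measure the spread between these samples, which may be technical.

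IRF1 was at 45.3, 48.1 and 51.5 CPM in control samples 1 to 3 and at 13.8, 14.9 and 14.6 CPM in IRF1shRNA samples 1 to 3, a mean of 29.9% of control. The groups did not overlap, and the difference passed edgeR's quasi-likelihood test (log2 fold change -1.745 ± 0.062 SE, Benjamini-Hochberg adjusted p = 4.53e-13). Total counts ran from 55143808 in IRF1shRNA sample 2 to 160436234 in IRF1shRNA sample 3, and 3 counts corresponded to between 0.0187 and 0.0544 CPM. The mesenchymal markers VIM and FN1 were abundant in every sample and both were lower with the shRNA, VIM at 68.0% and FN1 at 79.0% of control, as was ZEB1 at 91.1%. ESR1, PGR, CDH1 and the leukocyte genes PTPRC, CD3E and CD68 were all below 1 CPM. A CPM value is relative to all RNA of a sample, so less transcript per cell and fewer cells that express a gene cannot be told apart.

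Exact matches to short known response elements were found near the start of a minority of these genes. RefSeq promoter windows (GRCh38.p14, from 250 bases before to 50 bases after an annotated start) were at hand for 69 members and were searched on both strands. The ER stress element (CCAAT, then 9 bases of any kind, then CCACG) was found in 5 members, namely HSPA5, HSP90B1, CALR, PDIA6 and CANX, all of them ER chaperones, against 0.0916% of all genes with a window. The letters TGACGTGG of the unfolded protein response element were found in DNAJC10 alone among the members and in 0.927% of all genes. The heat shock element (GAA, TTC and GAA, each set apart from the next by 2 bases of any kind) was found in HSPA6, DNAJA1, HSP90AB1, HSP90AA1, HSPA8, DNAJB6 and HSPD1, which are cytosolic apart from the mitochondrial HSPD1, against 0.608% of all genes. No member held both the heat shock and the ER stress element. The core letters of the interferon-stimulated response element bound by IRF proteins (GAAA, 2 bases of any kind, GAAA) were found in 0 members and in 4.38% of all genes. A match is a description of letters in the window and not evidence that a factor binds there. Only exact matches within the window were counted, so a gene without one may still carry an element.

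The stretches around the ER elements are shown because their genes include the most abundant ER chaperones, with the matched letters in capitals and each stretch read 5′ to 3′ on the strand of its gene. The HSPA5 stretch lies at chr9:125241371-125241429 (minus strand), the CALR stretch at chr19:12938364-12938422 (plus), the HSP90B1 stretches at chr12:103930211-103930239 and chr12:103930316-103930344 (plus), the PDIA6 stretch at chr2:10812848-10812876 (minus), the CANX stretch at chr5:179698773-179698801 (plus) and the DNAJC10 stretch at chr2:182716127-182716144 (plus). Those of HSPA5, CALR and PDIA6 overlap no annotated exon of GENCODE release 29, and those of HSP90B1, CANX and DNAJC10 overlap an annotated exon of their own gene, the upstream HSP90B1 stretch also one of TTC41P on the other strand. In CALR, the downstream stretch of HSP90B1 and DNAJC10 the element reads on the opposite strand.
HSPA5: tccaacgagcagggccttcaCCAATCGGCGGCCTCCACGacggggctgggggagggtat
CALR: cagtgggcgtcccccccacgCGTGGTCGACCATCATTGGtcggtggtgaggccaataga
HSP90B1 upstream: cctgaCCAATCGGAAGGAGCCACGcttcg
HSP90B1 downstream: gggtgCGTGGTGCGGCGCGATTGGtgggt
PDIA6: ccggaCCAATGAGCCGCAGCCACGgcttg
CANX: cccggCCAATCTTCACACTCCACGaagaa
DNAJC10: caccgCCACGTCAaccta

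For comparison, heat shock elements of abundant members, HSP90AB1, HSP90AA1, HSPA8 and the mitochondrial HSPD1, are shown in the same way. A further HSPA8 match (230 to 218 bases before the start), another HSPD1 match that overlaps the printed one, and the matches in HSPA6, DNAJA1 and DNAJB6 are not printed. They lie at chr6:44247773-44247795 and chr6:44247826-44247848 (HSP90AB1, plus strand), chr14:102087115-102087137 (HSP90AA1, minus), chr11:123062174-123062196 (HSPA8, minus) and chr2:197500068-197500090 (HSPD1, minus). In all of the printed stretches the element reads on the opposite strand, as TTC, GAA and TTC. Those of HSP90AA1, HSPA8 and HSPD1 overlap an annotated exon of their own gene, and those of HSP90AB1 overlap no annotated exon. The HSPD1 stretch also lies in an exon of HSPE1, which is transcribed the other way from the same region.
HSP90AB1 upstream: gcaggTTCTGGAAGATTCatggg
HSP90AB1 downstream: gattgTTCTGGAAGCTTCtggat
HSP90AA1: ggttcTTCCGGAAGGTTCgggag
HSPA8: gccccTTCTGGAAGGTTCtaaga
HSPD1: gcattTTCTGGAAAGTTCtggaa

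Silencing of IRF1 went with higher ER chaperone transcripts, while the cytosolic and mitochondrial sets were mixed. Of the 71 tested members, 28 were higher and 14 lower in the IRF1shRNA samples by edgeR's quasi-likelihood test (adjusted p under 0.05), against 24.1% higher and 26.4% lower among all 18851 genes tested, so that 50.5% of all genes passed. In the ER, 14 of 20 members were higher and 1 was lower, with a median log2 fold change of 0.30 where the median of all genes was close to 0 (-0.0024). In the cytosol, 10 of 37 tested members were higher and 10 lower, with a median of -0.09. In the mitochondria, 3 of 9 were higher and 1 was lower, with a median of 0.03. Both of these medians were small and moved with the settings, the cytosolic one from -0.11 to -0.01, with -0.06 without IRF1shRNA sample 1 and -0.01 with the GC and length correction. The mitochondrial one ran from 0.0046 with halved counts to 0.12 with that correction, with 0.02 without control sample 1, 0.06 without control sample 3 and 0.01 without IRF1shRNA sample 2, whereas the ER median ran from 0.26 to 0.35. The median of all genes moved as well, to 0.067 with that correction, so the shift seen there was largely shared by all genes. Within the mitochondrial set, the 6 J-proteins had a median of 0.22 and the other 3 members one of -0.19. The unassigned members gave 1 higher and 2 lower of 5. Changes over 2-fold were few, with HSPB1, DNAJC13 and DNAJC22 lower and HSPA1L higher, which is 4 of 71 tested. Among all genes 3.43% were higher and 4.43% lower by that much, 7.86% together.

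Well expressed genes passed the test more often, so the same counts were taken at an average level of 10 CPM or more, where 67.2% of all genes passed, 31.1% as higher and 36.1% as lower. At that level 14 of 19 ER members were higher and 1 lower, 7 of 24 cytosolic members were higher and 10 lower, and 3 of 8 mitochondrial members were higher and 1 lower. Groups did not overlap for 46 of the 71 tested members, against 56.8% of all genes, and this held for 17 of the 20 in the ER. IRF1shRNA sample 2, the shallowest library, was the highest of its group for 37 of the 53 members at that level. Without it, and counting all tested members at any level, 13 ER members were higher and 1 lower. In that setting 8 cytosolic members were higher and 10 lower, and 3 mitochondrial members were higher and 2 lower. With every sample kept, the counts over all tested members were 14 and 1, 10 and 10, and 3 and 1. Of all genes, 23% were higher and 25.1% lower without that sample.

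**Figure D1:**
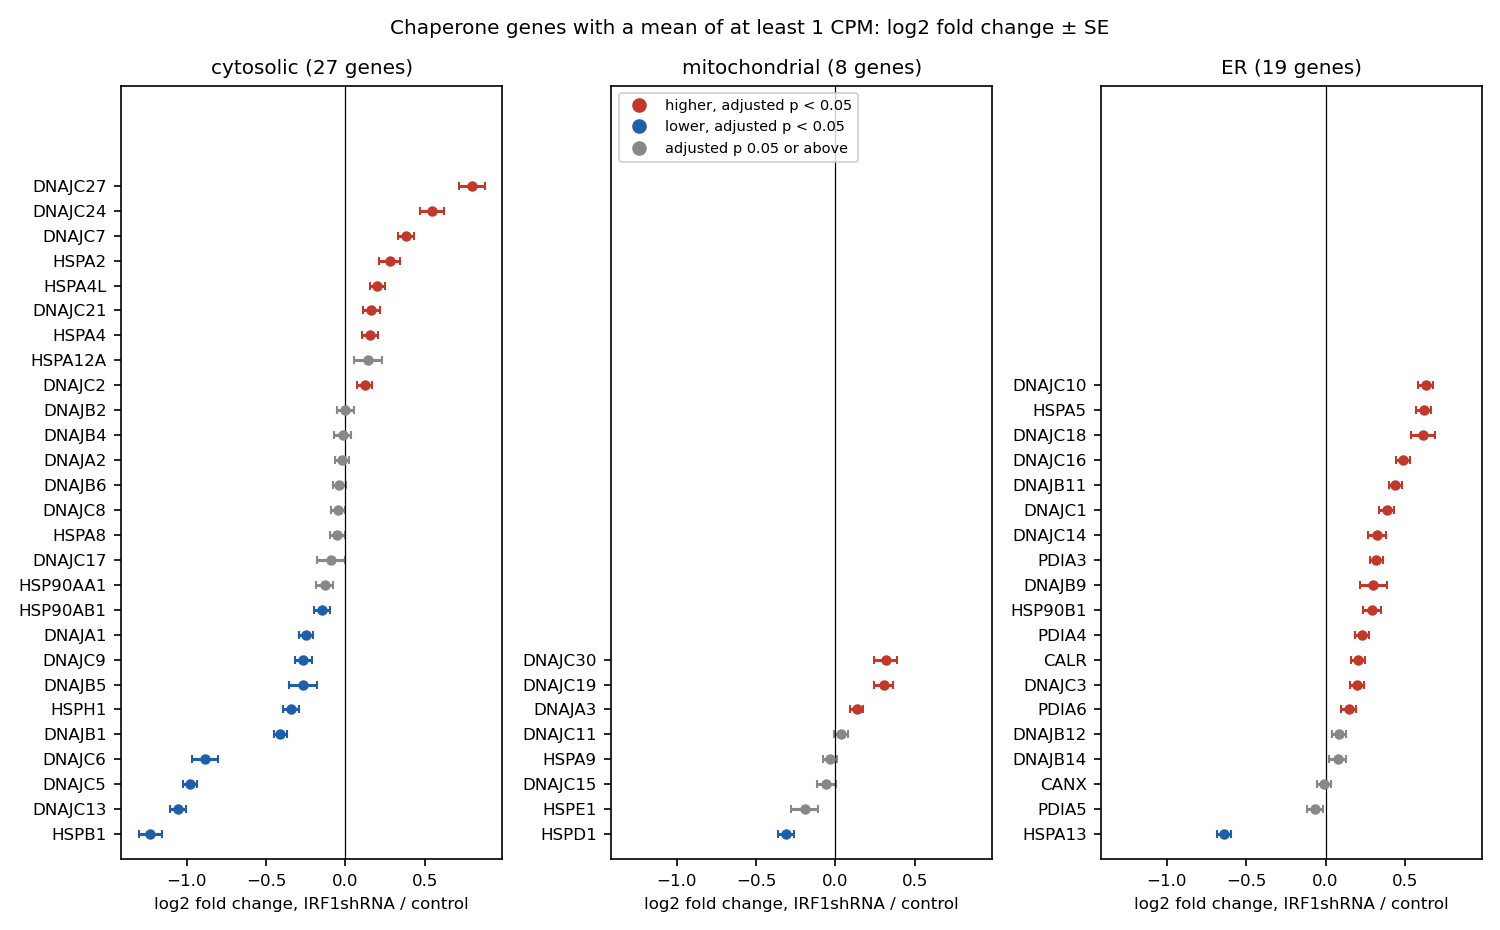
Log2 fold change (IRF1shRNA over control, horizontal axis) with its SE for each chaperone gene with a mean of at least 1 CPM, by compartment. Red points are higher and blue points lower at adjusted p under 0.05. Most ER genes lie right of 0, with HSPA13 as the only blue ER point, whereas the cytosolic genes spread to both sides, from DNAJC27 at 0.80 to HSPB1 at -1.23.

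HSPA5 (BiP, the HSP70 of the ER lumen and a sensor of unfolded proteins, at chr9:125234853-125241330) was at 1365, 1408 and 1419 CPM in control samples 1 to 3 and at 2107, 2280 and 2050.4 CPM in IRF1shRNA samples 1 to 3. All IRF1shRNA samples lay far above all controls. It rose 1.54-fold (log2 fold change 0.62 ± 0.049 SE, adjusted p = 1.08e-08 by edgeR's quasi-likelihood test), and the estimate ran from 0.58 to 0.67 over the 18 settings tried.

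DNAJC10 (ERdj5, a J-protein that reduces disulfide bonds of proteins bound for degradation) was at 95.9, 92.7 and 89.2 CPM in controls and at 143, 149 and 138 CPM with the shRNA. The groups lay far apart, and its log2 fold change of 0.63 ± 0.045 was the highest of the ER members (adjusted p = 2.85e-09 by edgeR).

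Of the 10 ER J-proteins, 8 were higher and 0 lower. All 10 estimates were above 0, with a median log2 fold change of 0.36. The 10 other ER members gave 6 higher and 1 lower, with a median of 0.22. Of all genes at 10 CPM or more, 31.1% were higher and 36.1% lower. DNAJB11 (ERdj3, which binds unfolded clients and passes them to BiP) was at 83.9, 85.5 and 84.7 CPM in controls and at 119, 113 and 112 CPM in IRF1shRNA samples, with no overlap (0.44 ± 0.042, adjusted p = 1.08e-07 by edgeR). DNAJC3 (p58IPK, a BiP partner that was also described as an inhibitor of eIF2 kinases) was at 160.1, 165 and 151 CPM in controls and at 184, 184 and 177 CPM with the shRNA. These groups were also separate, by a smaller margin (0.20 ± 0.044, adjusted p = 0.00120 by edgeR).

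DNAJB9 (ERdj4, a J-protein that keeps the stress sensor IRE1 quiet) was the least expressed of the core ER J-proteins, at 15.9, 15.1 and 13.4 CPM in controls and at 20.5, 16.3 and 17.8 CPM with the shRNA. The lowest IRF1shRNA sample was only just above the highest control. It rose by a log2 fold change of 0.30 ± 0.085 (adjusted p = 0.00678 by edgeR), but without IRF1shRNA sample 1 the estimate was 0.20 and the adjusted p 0.0651. The membrane J-proteins DNAJC18 (0.61), DNAJC16 (0.49), DNAJC1 (0.39) and DNAJC14 (0.32) also rose, and DNAJB12 (0.09, adjusted p = 0.106 by edgeR) and DNAJB14 (0.08, adjusted p = 0.288) did not pass.

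HSP90B1 (GRP94, the HSP90 of the ER) was at 1019, 1030 and 1006 CPM in controls and at 1167, 1376 and 1195 CPM in IRF1shRNA samples. No sample overlapped, although IRF1shRNA sample 2 stood well above the other two. It rose 1.22-fold (log2 fold change 0.29 ± 0.055, adjusted p = 0.000264 by edgeR).

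Calreticulin (CALR) and calnexin (CANX), the lectins that hold newly made glycoproteins, did not move alike. CALR was at 1463, 1499 and 1553 CPM in controls and at 1719, 1759 and 1719 CPM with the shRNA, with no overlap (0.20 ± 0.044, adjusted p = 0.000862 by edgeR). CANX was at 1909.8, 1907 and 1821 CPM in controls and at 1833, 1904 and 1855 CPM with the shRNA, so that the groups lay over each other. Its log2 fold change was -0.01 with a 95% confidence interval from -0.11 to 0.08 (adjusted p = 0.851 by edgeR), and its sign turned under several settings.

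Protein disulfide isomerases form and exchange disulfide bonds. Of the 5 with a PDIA symbol, 3 were higher and 0 lower, against 24.1% and 26.4% of all genes tested. Relatives without that symbol were not members and are in the unfolded protein response list described further on. Among them P4HB (0.14) and ERP44 (0.20) rose, and ERP29 (-0.25) and TXNDC5 (-0.60) fell. PDIA3 (ERp57, which works with the lectins) was at 343, 354 and 353 CPM in controls and at 425, 456 and 431 CPM with the shRNA (0.32 ± 0.043, adjusted p = 6.26e-06 by edgeR). PDIA4 (ERp72) was at 334, 341 and 363 CPM in controls and at 402, 419.6 and 398 CPM with the shRNA (0.23 ± 0.045, adjusted p = 0.000317). Neither gene had a control sample that reached the IRF1shRNA range.

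PDIA6 (P5) was at 201, 209 and 213 CPM in controls and at 217, 248 and 224 CPM in IRF1shRNA samples. The lowest IRF1shRNA sample lay next to the highest control, and the rise of 0.15 ± 0.049 (adjusted p = 0.0205 by edgeR) did not pass without IRF1shRNA sample 2, with an estimate of 0.09 and an adjusted p of 0.0999. It also missed the threshold when control sample 1 (0.12) or control sample 2 (0.15) was left out. PDIA5 (-0.07, adjusted p = 0.275) and PDIA2, at below 0.5 CPM (0.52, adjusted p = 0.140), did not pass. Exons of another gene on the opposite strand overlap 18.9% of the exonic length of PDIA3 and 25.2% of that of PDIA6, and likewise 15.3% of DNAJB11, 34.9% of DNAJC14, 28.6% of the cytosolic DNAJC9 and 14.4% of the mitochondrial DNAJC30. On the same strand, exons of another gene overlap 7.87% of DNAJB11, 23.2% of DNAJC14 and 13.8% of DNAJC25. Whether reads were counted by strand is not given in the sources used here, so these genes are less certain.

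HSPA13 (STCH, an HSP70 family ATPase of microsomes that lacks a substrate-binding domain) was the only ER member that fell. It was at 121, 117 and 112 CPM in controls and at 75.5, 75.3 and 73.5 CPM in IRF1shRNA samples. The IRF1shRNA values were almost equal to each other and well below every control, at 64.2% of the control mean (-0.64 ± 0.043, adjusted p = 1.56e-09 by edgeR).

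**Figure D2:**
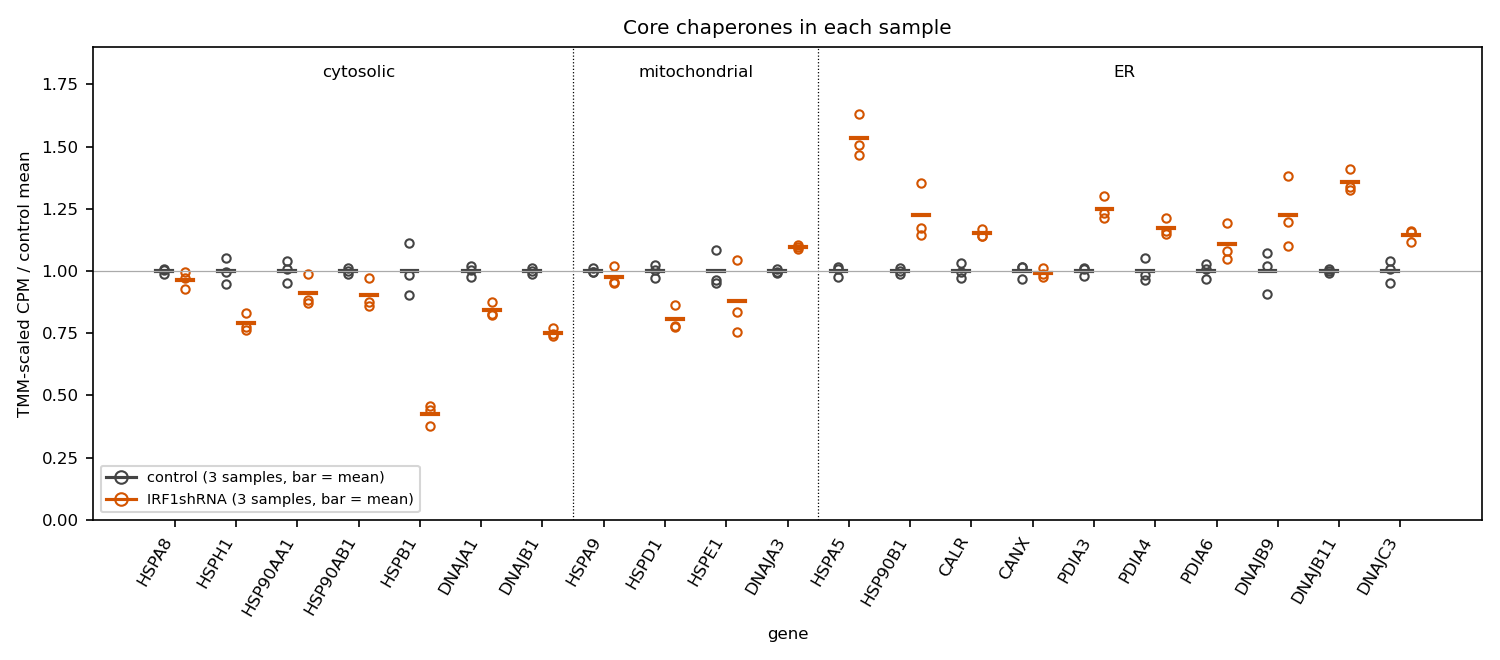
TMM-scaled CPM of 21 core chaperones in each of the 6 samples, divided by the mean of the 3 controls (vertical axis, ratio). Circles are samples, bars are group means, grey is control and orange is IRF1shRNA. The ER genes lie above 1 with the shRNA except for CANX, while among the cytosolic genes HSPB1 stands lowest, at 42.6% of control.

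In the cytosol the most abundant chaperones moved little. HSPA8 (HSC70, the constitutive HSP70) was at 2441, 2450.1 and 2405 CPM in controls and at 2259.7, 2419 and 2367 CPM with the shRNA. The ranges overlapped, and the log2 fold change was -0.05 with a 95% interval from -0.15 to 0.05 (adjusted p = 0.385 by edgeR). HSP90AB1, the constitutive HSP90, was at 2494, 2533 and 2468 CPM in controls and at 2149.8, 2426 and 2182 CPM with the shRNA.

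IRF1shRNA sample 2 of HSP90AB1 lay just below the controls and the other two further down. The fall of 0.15 on the log2 scale passed (adjusted p = 0.0210 by edgeR) but was lost with scaling by upper quartile (adjusted p = 0.0855) or library size (adjusted p = 0.0769). It was also lost without control sample 2 (adjusted p = 0.0853), control sample 3 (0.0569), IRF1shRNA sample 1 (0.0828) or IRF1shRNA sample 3 (0.0762).

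HSP90AA1, the inducible HSP90, was at 3892, 3774 and 3553 CPM in controls and at 3258, 3689 and 3299 CPM with the shRNA. IRF1shRNA sample 2 lay inside the control range, and the log2 fold change of -0.13 did not pass (adjusted p = 0.0596 by edgeR). Without IRF1shRNA sample 2 it was -0.19 and passed (adjusted p = 0.00220), as it did with DESeq2 (adjusted p = 0.0382).

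HSPB1 (HSP27, a small heat shock protein that holds unfolding proteins and binds the actin cytoskeleton, at chr7:76302544-76304295) was at 421, 460 and 519 CPM in controls and at 207, 176 and 213 CPM in IRF1shRNA samples. Every IRF1shRNA sample was at less than the lowest control by a wide gap. It fell to 42.6% of the control mean (log2 fold change -1.23 ± 0.073, adjusted p = 2.65e-10 by edgeR), the lowest estimate of all members with a mean of at least 1 CPM. The other small heat shock proteins tested in the cytosol, HSPB6, HSPB8 and HSPB9, were under 1 CPM and did not pass.

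DNAJC13 (RME-8, a J-protein that works with HSC70 on endosomes, at chr3:132417526-132539032) was at 145, 139 and 142 CPM in controls and at 63.9, 72.6 and 69.0 CPM with the shRNA. DNAJC5 (cysteine string protein, a J-protein of secretory vesicles, at chr20:63895182-63936031) was at 184, 194 and 196 CPM in controls and at 96.4, 96.5 and 98.0 CPM with the shRNA. In both genes the control and IRF1shRNA samples formed separate and tight sets. DNAJC13 fell to 48.2% of control (-1.06 ± 0.048, adjusted p = 1.12e-11 by edgeR) and DNAJC5 to 50.7% (-0.98 ± 0.042, adjusted p = 4.64e-12). DNAJC6 (auxilin, which uncoats clathrin vesicles together with HSC70), named after its values were seen, was at 15.1, 16.3 and 13.6 CPM in controls and at 7.38, 8.23 and 8.72 CPM with the shRNA, and fell without overlap (-0.88 ± 0.084, adjusted p = 1.17e-07 by edgeR).

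The partners of the cytosolic HSP70 moved in both directions. DNAJB1 (HSP40, the stress-induced J-protein) was at 211, 207 and 209 CPM in controls and at 154, 156 and 161 CPM with the shRNA, with no overlap (-0.41 ± 0.040, adjusted p = 1.76e-07 by edgeR). DNAJA1, a farnesylated J-protein of the cytosol, was at 857, 843 and 819 CPM in controls and at 691, 735 and 696 CPM with the shRNA, again with no overlap (-0.25 ± 0.044, adjusted p = 0.000124). DNAJC9, a histone chaperone, and DNAJB5 also fell, both by 0.26 to 0.27 on the log2 scale, DNAJB5 in 13 of 18 settings only.

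Among the exchange factors, HSPH1 (HSP105) fell while HSPA4 and HSPA4L rose. HSPH1 was at 947, 896 and 853 CPM in controls and at 686, 746 and 695 CPM with the shRNA, with a clear gap between the groups (-0.34 ± 0.049, adjusted p = 1.54e-05 by edgeR). HSPA4 (APG-2) was at 511, 497 and 499 CPM in controls and at 537, 603 and 539 CPM with the shRNA, with IRF1shRNA sample 2 above the rest (0.16 ± 0.048, adjusted p = 0.0127). HSPA4L rose by 0.20, to 115% of control.

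Cytosolic J-proteins split almost evenly, with 6 (30%) of 20 tested members higher and 7 (35%) lower. This was close to the shares over all genes, 24.1% and 26.4%, or 31.1% and 36.1% at 10 CPM or more. DNAJC27 (a J-protein with a Rab-like GTPase domain) was at 7.01, 6.28 and 6.57 CPM in controls and at 12.1, 10.3 and 11.9 CPM with the shRNA, with no overlap (0.80 ± 0.082, adjusted p = 2.96e-07 by edgeR). DNAJC24, which is needed to make the diphthamide of elongation factor 2, rose by 0.55 and DNAJC7, an HSP70 and HSP90 partner with tetratricopeptide repeats, by 0.38. DNAJA4 was under 1 CPM throughout and rose by 0.94, and DNAJC2 and DNAJC21, which are linked to ribosomes, rose by 0.12 and 0.16, DNAJC2 in 10 of 18 settings only. DNAJA2, DNAJB2, DNAJB4, DNAJB6, DNAJC8 and DNAJC17 had estimates between -0.09 and 0.00 and overlapping groups.

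The stress-inducible HSP70 genes were barely detected. HSPA1A was at 0.430, 0.498 and 0.369 CPM in controls and at 0.333, 0.234 and 0.456 CPM with the shRNA, with overlapping groups (-0.27, adjusted p = 0.470 by edgeR). HSPA1B was at 0.105, 0.237 and 0.107 CPM in controls and at 0.0714, 0.0721 and 0.0425 CPM with the shRNA, only a few counts above the limit of detection, and missed the threshold narrowly (-1.32 ± 0.54, adjusted p = 0.0503). The coding sequences of HSPA1A and HSPA1B are identical at 1922 of 1926 bases (99.8%), and how reads that match both were treated is not given in the sources used here, so the levels of both are uncertain.

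HSPA1L, their neighbour on chromosome 6, was at 0.146, 0.0490 and 0.0537 CPM in controls and at 0.270, 0.252 and 0.152 CPM with the shRNA. The lowest IRF1shRNA sample lay just above the highest control. It rose 2.66-fold (log2 fold change 1.41 ± 0.49, adjusted p = 0.0241 by edgeR), but missed the threshold without control sample 2 (1.16) or 3 (1.17), or without IRF1shRNA sample 1 (1.22) or 2 (1.34), with adjusted p from 0.0560 to 0.117. HSPA2 was the only other cytosolic HSP70 that passed, at 9.31, 9.80 and 9.71 CPM in controls against 12.0, 11.7 and 11.3 CPM (0.28, adjusted p = 0.00256).

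In the mitochondria, HSPD1 (HSP60, the chaperonin of the matrix) was the only member that fell. It was at 819.9, 804 and 776 CPM in controls and at 619, 691 and 622 CPM with the shRNA, with IRF1shRNA sample 2 nearest to the controls and no overlap (-0.31 ± 0.049, adjusted p = 3.65e-05 by edgeR). Its partner HSPE1 (HSP10), encoded next to it and transcribed the other way, was at 51.5, 45.8 and 45.2 CPM in controls and at 39.6, 49.7 and 35.9 CPM with the shRNA. IRF1shRNA sample 2 alone lay among the HSPE1 controls.

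The log2 fold change of HSPE1 was -0.19 (adjusted p = 0.0705 by edgeR), and without IRF1shRNA sample 2 it was -0.33 and passed (adjusted p = 0.000581). Exons of HSPD1 on the other strand overlap 14.2% of the exonic length of HSPE1, and those of a readthrough gene on its own strand 9.71%.

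HSPA9 (mortalin, the HSP70 of the matrix and of protein import) was at 1211, 1213 and 1231 CPM in controls and at 1159.5, 1243 and 1164 CPM with the shRNA. The groups overlapped and the log2 fold change was -0.04 with a 95% interval from -0.13 to 0.06 (adjusted p = 0.549 by edgeR). Its J-protein DNAJA3 (TID1) was at 66.4, 66.7 and 67.4 CPM in controls and at 73.2, 72.7 and 73.9 CPM with the shRNA, a small rise with very tight groups (0.13 ± 0.040, adjusted p = 0.00987). DNAJC19, a J-protein of the import motor, rose by 0.30 and DNAJC30 by 0.32, and DNAJC11, DNAJC15 and DNAJC28 did not pass.

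Of the members with no assigned compartment, DNAJC22 was at 0.787, 1.05 and 0.885 CPM in controls and at 0.460, 0.342 and 0.419 CPM with the shRNA. It fell to 44.8% of control with no overlap (-1.12 ± 0.22, adjusted p = 0.000334 by edgeR), at a level near 1 CPM. HSPB11, a subunit of the intraflagellar transport machinery despite its name, fell by 0.18, and DNAJC25 rose by 0.61, from a range of 28.3 to 29.8 CPM to one of 42.9 to 46.2 CPM. DNAJB13 and DNAJC4 did not pass.

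Summed over its members, the ER set took 7424, 7539 and 7496 CPM in controls and 8784, 9360.4 and 8765 CPM in IRF1shRNA samples, a mean of 119.8% of control with no overlap. The cytosolic set took 13205, 13103 and 12726 CPM in controls and 11208, 12262 and 11406 CPM with the shRNA, 89.3% of control. Its groups did not overlap either, with IRF1shRNA sample 2 nearest to the controls. The mitochondrial set was at 92.4% of control, also with no overlap, with 2314, 2293 and 2289 CPM against 2067, 2237 and 2068 CPM.

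Over all members the sums were level, at 22890 ± 247 CPM in controls and 22821 ± 993 CPM with the shRNA (mean ± SD, n = 3 each). The ratio of the ER to the cytosolic sum was 0.576 ± 0.013 in controls and 0.772 ± 0.011 with the shRNA, and IRF1shRNA sample 2, high in both sums, gave 0.763, the lowest ratio of its group but far above the highest control, 0.589. The ratio of the ER HSP70 HSPA5 to the cytosolic HSP70 HSPA8 went from 0.559, 0.575 and 0.590 to 0.932, 0.942 and 0.866. These sums are set by a few abundant genes and are given without a test.

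**Figure D3:**
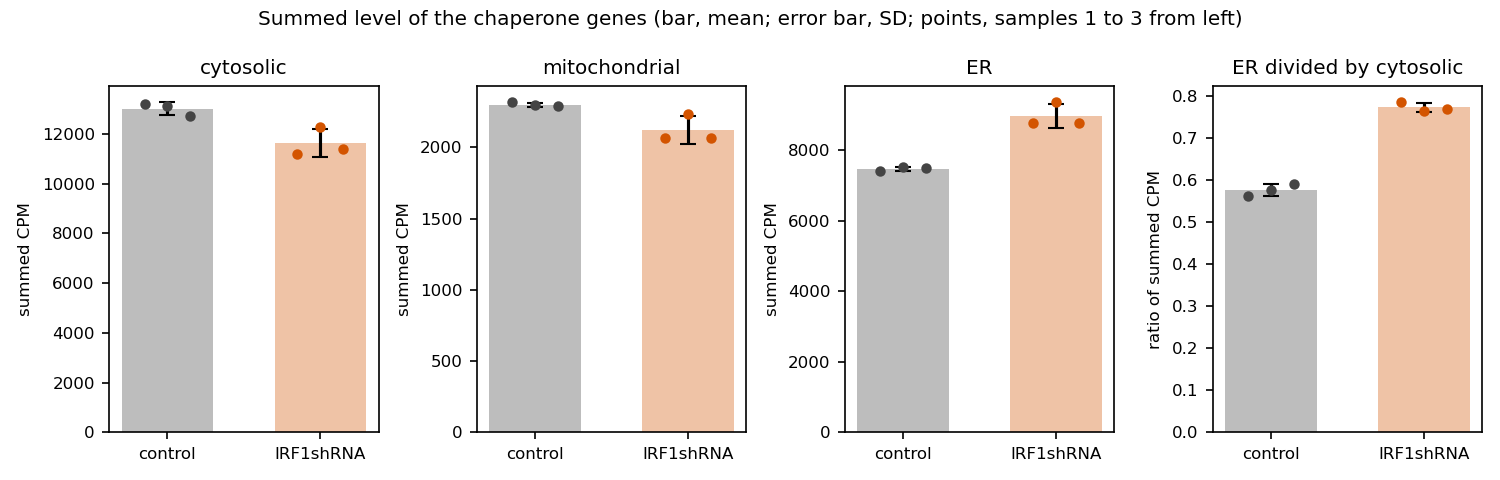
Summed TMM-scaled CPM of the cytosolic, mitochondrial and ER chaperone genes and the ratio of the ER to the cytosolic sum (vertical axes, all from 0). Bars are means of 3 samples, error bars SD and points the samples in order. The ratio panel shows all IRF1shRNA samples between 0.763 and 0.784 and all controls between 0.562 and 0.589.

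Per kb of exon, the scale on which levels of different genes can be set side by side, HSP90AB1 (838 CPM per kb in controls, 756 with the shRNA) and HSP90AA1 (713 and 651) led in both groups. HSPA5 stood at place 5 of all members in controls at 358 CPM per kb, below HSPA8 at 502, and at place 4 with the shRNA at 549, above HSPA8 at 484. HSPB1 went from place 8 to place 12, at 285 and 121 CPM per kb, and HSP90B1 from 9 to 7, at 217 and 265. These places rest on the union of annotated exons as gene length and carry no test.

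The promoter elements printed above can be set beside these values. Of the 5 members with the ER stress element, HSPA5, HSP90B1, CALR and PDIA6 rose and CANX did not pass, and DNAJC10 with the unfolded protein response element rose. Of the 7 with the heat shock element, HSPD1, DNAJA1 and HSP90AB1 fell, and HSP90AA1, HSPA8, DNAJB6 and HSPA6 did not pass. All 7 estimates were below 0 as reported, as were those of 24 of 37 tested cytosolic and 4 of 9 mitochondrial members. The estimate of DNAJB6 ran from -0.06 to 0.02 over the 18 settings, and that of HSPA8 came as near to 0 as -0.0002. HSPA6 lay at a mean of 0.40 CPM with overlapping groups. For comparison, 14 of all 20 ER members were higher. Of all genes at 10 CPM or more, 31.1% were higher and 36.1% lower. Members with an element are too few to be told apart from these shares. Of the related genes described further on, CHORDC1 also held heat shock elements, and it rose (0.24, adjusted p = 0.00161 by edgeR). Among members that changed, DNAJB11, PDIA4, HSPB1, DNAJC13 and DNAJC5 held none of these letters in their windows, and PDIA3 had no window.

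Genes that work with the chaperones, 64 in lists outside the families above, gave 28 higher and 20 lower (39 and 17 once GC content and gene length were corrected for). Most of them were well expressed, and the shares over all genes were 24.1% higher and 26.4% lower, or 31.1% and 36.1% at 10 CPM or more. With the GC and length correction the shares over all genes were 31.3% higher and 23.6% lower. In the unfolded protein response list 16 of 24 (66.7%) were higher and 5 (20.8%) lower, with a median log2 fold change of 0.22. HERPUD1, which organises degradation of ER proteins, was at 63.3, 59.0 and 62.0 CPM in controls and at 121, 121 and 119.6 CPM with the shRNA, with a wide gap (0.97 ± 0.042, adjusted p = 5.86e-12 by edgeR). CRELD2 (0.68), SDF2L1 (0.60) and the HSP110 relative HYOU1 (0.55) of the ER lumen also rose. HERPUD1, SDF2L1 and HYOU1 hold in their windows a variant ER stress element (ATTGG, 1 base of any kind, CCACG). This variant was found in 0 chaperone members and in 0.0696% of all genes with a window. The ER stress element itself was found in CRELD2, which rose, and in XBP1, which did not pass (0.04), and the letters TGACGTGG in HYOU1, which rose, and in TXNDC5, which fell (-0.60, adjusted p = 0.000260 by edgeR).

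The sensors and effectors of the response did not move together. ATF6 was at 123, 123 and 113 CPM in controls and at 178, 180.5 and 169.6 CPM with the shRNA, with no overlap (0.56 ± 0.046, adjusted p = 1.91e-08 by edgeR), and EIF2AK3 (PERK) rose by 0.49. ERN1 (IRE1, -0.14, adjusted p = 0.141) and XBP1 (0.04, adjusted p = 0.418) did not pass, and gene counts do not separate the spliced form of XBP1. DDIT3 (CHOP, a factor of the PERK branch linked to cell death) was at 27.7, 25.0 and 27.3 CPM in controls and at 16.8, 16.1 and 17.2 CPM with the shRNA, so that every IRF1shRNA sample was lower (-0.68 ± 0.063, adjusted p = 9.94e-08 by edgeR). ATF4 fell by 0.15 and the oxidase ERO1A by 0.43 on the log2 scale.

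On the cytosolic side, the list of heat shock factors and co-chaperones had 5 of 20 (25%) higher and 10 (50%) lower, with a median of -0.13, against 31.1% and 36.1% of all genes at 10 CPM or more. CRYAB, one of the 10 lower, was far below that level, at a mean of 0.085 CPM. HSF1, the main factor of the heat shock response, was at 155, 161 and 169 CPM in controls and at 95.9, 85.5 and 99.7 CPM with the shRNA, with a wide gap (-0.78 ± 0.054, adjusted p = 1.91e-09 by edgeR). BAG3, an HSP70 exchange factor that also binds small heat shock proteins, fell by 0.61, CDC37, which brings kinases to HSP90, by 0.41, and PTGES3 (p23, an HSP90 co-chaperone) by 0.34 on the log2 scale. BAG5 rose by 0.18, with the smallest adjusted p of those that were higher (0.00126 by edgeR).

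Of the 8 subunits of the CCT chaperonin, which folds actin and tubulin, 0 were higher and 3 (37.5%) lower, a share near the 36.1% of all genes at 10 CPM or more. CCT8 was at 343, 339 and 337 CPM in controls and at 261, 285 and 261 CPM with the shRNA, with no overlap (-0.34 ± 0.044, adjusted p = 5.35e-06 by edgeR), whereas CCT4 and CCT5 fell by 0.10 and 0.11, with adjusted p of 0.0498 and 0.0405, close to the threshold. Of 12 mitochondrial partners and proteases, 7 (58.3%) were higher and 2 (16.7%) lower, against 31.1% and 36.1% of all genes at 10 CPM or more. HSCB (mean of 6.64 CPM) and HTRA2 (9.34 CPM) lay below that level, and HTRA2 was among the 7 higher. The calls include the import subunit TIMM44 (0.41 ± 0.041, adjusted p = 2.07e-07 by edgeR) and the protease subunit AFG3L2 (-0.24 ± 0.047, adjusted p = 0.000376).

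**Figure D4:**
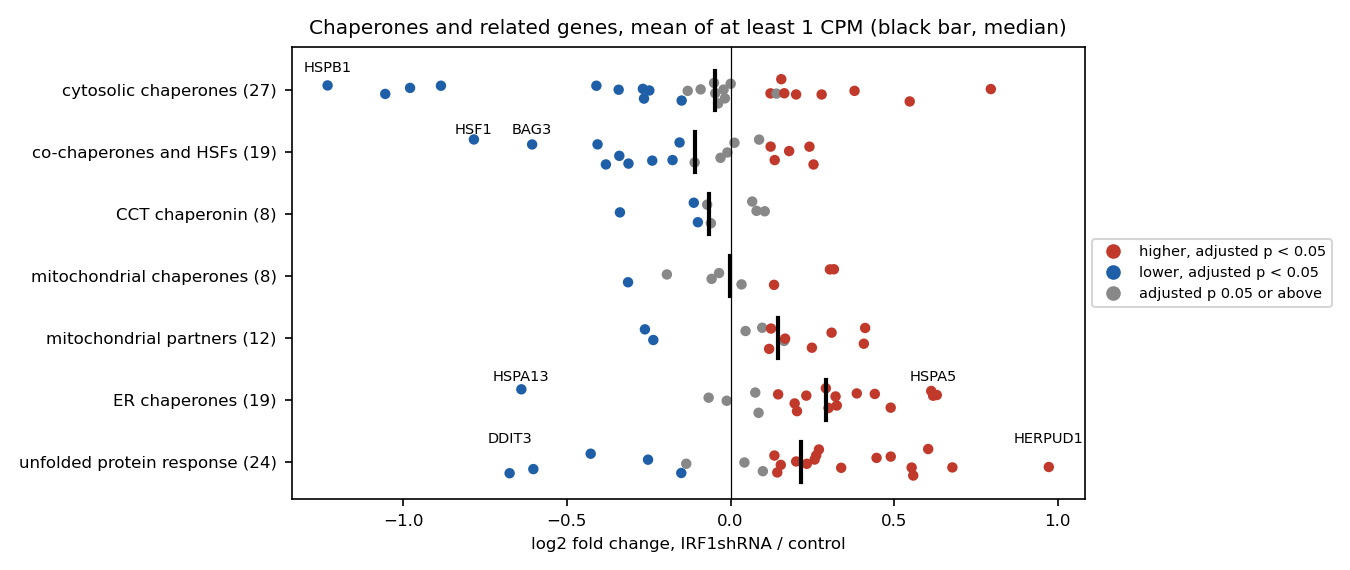
Log2 fold change (horizontal axis) of each gene with a mean of at least 1 CPM in the chaperone sets and in the lists of related genes, with the number of genes plotted in brackets. Red is higher, blue lower and grey not past adjusted p 0.05, and black bars are medians. The ER chaperones and the unfolded protein response genes have their medians right of 0, with HERPUD1 at 0.97, and HSF1 and HSPB1 lie far to the left.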

How the data were processed

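Total RNA from 3 control and 3 IRF1shRNA samples of BT-549 cells had been turned into stranded mRNA libraries (TruSeq). Per the labels and the submitters' processing notes, the authors used CASAVA 1.8.2, STAR 2.7.9a, featureCounts and DESeq2 1.24.0 with GRCh38.p7, and the deposited values are counts per symbol that were not normalized. The annotation release and the treatment of strand, multi-mapped reads and read pairs are not given in the sources used here. Among values from 2 to 11, between 72.1% and 75.2% per sample were even, as when mates of a pair are counted separately, so halved counts were an alternative.

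Counts were tested with edgeR 4.0.16 (R 4.3.3), glmQLFit and glmQLFTest, with TMM scaling, filterByExpr with a minimum count of 10, group as the single factor and Benjamini-Hochberg adjustment over the 18851 genes tested. A call is an adjusted p under 0.05. CPM are TMM-scaled, SE is the size of the log2 fold change divided by the square root of F, and floors of 3 counts cover counting error only. The test was tried on simulated data first. Loci, exon lengths, overlaps and GC content came from GENCODE release 29, and promoter windows (250 bases before to 50 after a start) from RefSeq (GRCh38.p14), with 69 of 78 members matched by symbol.

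Members, compartments, related lists and the naming rule were chosen with earlier results of these data known, so no list was tested as a set. Text names IRF1, 23 core chaperones, the 3 largest changes in each direction (mean of at least 1 CPM, no overlap), calls over 2-fold, and the gene with the smallest adjusted p in each direction of each related list. Further genes were named after their values were seen. Alternatives were DESeq2 1.42.0, other scalings and filters, each sample left out, the replicate block, halved counts, every library thinned to the shallowest, an offset for GC content and gene length (also combined with that block), and HSPA1A and HSPA1B summed.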

Additional observations from a re-analysis of the deposited data

How the results depend on the processing

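Of the counts of higher and lower genes and the IRF1 estimate, 218 values under other settings kept the direction and the call or stayed within 1.5 times of the reported count, and 3 did not. All 3 were the number of mitochondrial members that were lower, 1 by edgeR, which was 2 with no filter and 2 with the replicate block, and ran from 1 to 2 when each sample was left out in turn. HSPE1 was the added gene (adjusted p = 0.00167 by edgeR with no filter and 0.0280 with the block).

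For single genes, 576 values were unaltered in direction and call, 8 newly passed the threshold, 14 no longer passed it and 8 changed sign. The sign changes were all of genes near 0. CANX was at 0.032 with upper quartile scaling, 0.038 with library size only, 0.012 when genes had to reach 1 CPM in 3 or more samples, 0.0267 with the GC and length correction and 0.0267 with that correction and the replicate block, and ran from -0.031 to 0.00065 with a sample left out. HSPA9 was at 0.0085 with upper quartile scaling and 0.015 with library size only. The causes were not tested. The losses were of HSP90AB1, HSPA1L, PDIA6 and DNAJB9, with HSP90AB1 at -0.11 and -0.10 under those scalings. Of the 18 settings, DNAJC2 passed in 10, DNAJB5 in 13, HSPB11 in 16 and HSPA4 and DNAJC21 in 17. HSPA1A and HSPA1B summed gave -0.47 (adjusted p = 0.150 by edgeR).

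Same-numbered samples of both groups correlated in their deviations from the group means at -0.10, 0.06 and 0.14 for replicates 1 to 3, and replicates 2 and 3 but not 1 correlated best with their own number, so the numbers were not taken as a pairing. With the replicate block, 28 members were higher and 16 lower, and HSP90AA1 (-0.13, adjusted p = 0.0372 by edgeR) and HSPE1 were the added calls among the members named. The median over all genes stayed between -0.0086 and 0.067 in every setting. Genes under 1 CPM, such as HSPA1B and HSPA1L, rest on few counts, and depth limits what can be said of them.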
